A study of Mus musculus with 35 samples.

Results

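Izumo1 and 8 Adam genes, Adam1a, Adam1b, Adam2, Adam3, Adam5, Adam18, Adam24 and Adam32, were followed as a set of genes for sperm-egg fusion and sperm surface proteins. The 9 genes were taken by name from 24411 gene rows, and all 9 were counted in every library. The RNA came from pachytene spermatocytes (Spc), round spermatids (RS) and isolated chromatoid bodies (CB) of Smg6-cKO and control mice. Animals were adults of mixed C57Bl/6J and SV129 background. In the cKO (Smg6 fx/fx with an Ngn3Cre transgene) the Cre is driven by the Ngn3 promoter and removes exon 9 of Smg6 in germ cells from the early spermatogonia onwards. The control littermates (CTRL) carried no Cre but did carry 1 or 2 floxed alleles. Spc and RS had 3 libraries per genotype, from fractions enriched by sedimentation through albumin, and CB RNA had 4 CTRL and 3 cKO libraries, each pooled from 2 to 4 mice. SMG6 is an endonuclease of nonsense-mediated decay (NMD), the pathway that degrades mRNAs with premature stop codons and also some normal mRNAs for full-length proteins.

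IZUMO1 sits on the sperm head after the acrosome reaction and binds its receptor JUNO on the egg, without which sperm and egg do not fuse. ADAM proteins are membrane proteins with a metalloprotease and a disintegrin domain. Several are made only in the male germ line, where they are assembled in the endoplasmic reticulum of spermatids and carried to the sperm surface. ADAM1 and ADAM2 form the heterodimer fertilin, with ADAM1A retained in the endoplasmic reticulum and ADAM1B reaching the sperm. ADAM3 is needed for sperm to pass into the oviduct and to bind the zona pellucida, and its arrival at the surface depends on the ADAM1A-ADAM2 complex. ADAM5, ADAM18 and ADAM32 are further testis ADAM proteins, and ADAM24, also called testase 1, is a sperm protease.

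The genes differ in structure (GENCODE vM21, GRCm38). Adam1a, with its main transcript at chr5:121518576-121522071, and Adam1b (chr5:121500098-121503435) are neighbours on the minus strand, each with 1 exon. Adam24 (chr8:40675077-40682199, plus strand) has 2 exons. Adam18 (chr8:24602246-24674755), Adam3 (chr8:24677225-24725852), Adam5 (chr8:24727093-24824369) and Adam32 (chr8:24836140-24948804) lie side by side on the minus strand, with 20 to 22 exons in the main transcript. Adam2 (chr14:66027329-66077733, minus strand) has 21 exons, and Izumo1 (chr7:45621811-45628823, plus strand) has 10. Izumo1 was represented by its 10-exon transcript.

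The catalytic motif that holds the zinc ion in active metalloproteases was found in the coding sequence of 3 of the 8 Adam genes, Adam1a, Adam1b and Adam24. The 30 coding bases that begin it are given here 5′ to 3′ from GENCODE vM21, with the codons for the first histidine, the glutamate and the second histidine in capitals, because they show both which genes hold the motif and how alike Adam1a and Adam1b are.
Adam1a (chr5:121520092-121520121, minus strand): CACGAGctcgggCACaacctgggtatccag
Adam1b (chr5:121501940-121501969, minus strand): CACGAGctcgggCACaacctgggtatccag
Adam24 (chr8:40680518-40680547, plus strand): CATGAGataggtCACaatttgggcatgtca
The first pair is the same sequence at different positions. Over the whole coding sequence Adam1a and Adam1b were 75.5% identical in a global alignment, whereas the other pairs of Adam genes in the set ranged from 50.4% to 57.5%. Of the windows of 75 bases in Adam1b, the read length of the Spc and RS libraries, 31.1% also occurred in Adam1a. In Adam1a, 50.1% also occurred in Adam1b or in Gm42878, a gene that overlaps it on the same strand, and 1016 of its 3422 windows occurred in Adam1b. No such window was shared for the other 7 genes. The split of reads among Adam1a, Adam1b and Gm42878 is therefore uncertain, and that of the other genes is not affected by such windows.

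The promoter of Izumo1 held 1 full cAMP response element, TGACGTCA, the palindrome bound by CREB and CREM, the latter a regulator of spermatid genes. It is shown because it is the only motif of those searched, on either strand, that was found in the Izumo1 promoter, apart from the shorter core inside it, in a window of 250 bases before to 50 after the start. The 30 bases around it (RefSeq, GRCm38.p6, the element in capitals, beginning 96 bases before the start) read as follows.
Izumo1 (chr7:45621704-45621733, plus strand): ctgccaccctaTGACGTCAcgatgggatgg
This element occurred in 1.79% of 32851 RefSeq promoters, and its core TGACG in 20.8%. Neither was present in the window of Adam1b (chr5:121503386-121503685). The RefSeq start of Adam1a differs from the GENCODE start of its main transcript, so that its window (chr5:121521646-121521945) lies wholly inside the single exon and nothing is read from it. The MYB motif CAGTTG was in 13.7%, and Adam1b held it once, on the opposite strand. Promoters of 3 of the 9 genes were matched.

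Gene counts per library were 36419197 to 47355837 in Spc, 40237647 to 45391308 in RS and 2705277 to 12103906 in CB. The Smg6 gene itself does not check the genotype at this level, because only 1 exon is removed. Its level in CPM, counts relative to the library total after TMM scaling, which adjusts that total for differences in composition between libraries, was 122 to 196 in CTRL Spc and 192 to 201 in cKO Spc, and 132 to 216 and 175 to 188 in RS. The summed CPM of 9 late spermatid markers was 3650 to 7496 in CTRL Spc and 428 to 1413 in cKO Spc, and 29680 to 39400 and 1963 to 2022 in RS. The 8 round spermatid markers summed to 4391 to 4683 in CTRL RS and 1202 to 1420 in cKO RS, and the 10 spermatocyte markers to 1117 to 1217 and 1333 to 1340. In cKO RS, Leydig cell markers reached 29.3 to 305 against 8.17 to 8.45 in CTRL, and macrophage markers 135 to 213 against 20.4 to 28.7. In Spc the Leydig cell markers were at 536 to 1103 in cKO against 111 to 355 in CTRL, whereas Sertoli cell markers were at 179 to 261 against 313 to 854. Macrophage markers were at 33.7 to 46.0 in cKO Spc against 26.1 to 38.9 in CTRL Spc. Spermatogonia markers were at 64.5 to 112 against 49.6 to 61.7, and spermatocyte markers at 1983 to 2264 against 1729 to 1867. CTRL Spc replicate 1 stood apart from the other CTRL Spc libraries in late spermatid markers (7496 against 3650 and 3671). The paper reports that cKO males are infertile, with spermatogenesis stopped at the round spermatid stage and no elongating spermatids. Its fractions were enriched and not pure, so CTRL and cKO RS need not be matched in spermatid step. In bulk RNA, fewer cells of a type and less RNA per cell cannot be told apart, and the part of these markers in the values below was not tested.

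**Figure D1:**
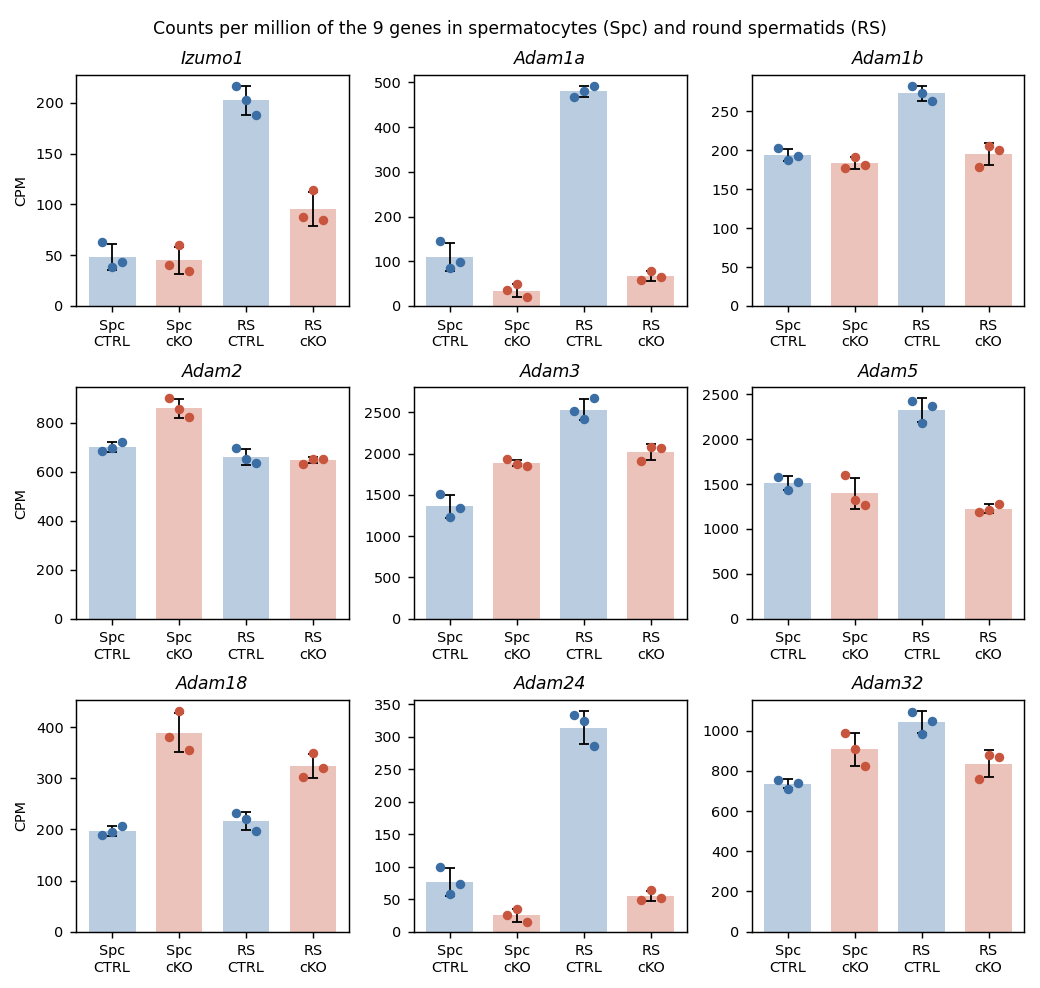
CPM of the 9 genes in each Spc and RS library (points), scaled together over the 12 libraries, with the group mean (bar) and SD (error bar), CTRL in blue and cKO in red. Adam1a and Adam24 are lowest in cKO at both stages, and Izumo1 stands at 203 CPM in CTRL RS against 95.4 in cKO RS.

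Set against each other per kilobase of the main transcript, levels in CTRL RS were led by Adam3 (923 ± 46.3 CPM per kb, SD, n = 3) and Adam5 (908 ± 50.4). These overlapped each other in the spread of the libraries. Adam32 (425 ± 22.0) and Adam2 (259 ± 12.5) followed, then Adam1a (137 ± 3.55) and Izumo1 (136 ± 9.73), which also overlapped. Adam24 (109 ± 8.75), Adam18 (91.4 ± 7.43) and Adam1b (81.8 ± 3.01) were the lowest, with Adam18 and Adam1b overlapping. In cKO RS the order of the first 4 was the same, but Adam18 stood next at 137 ± 9.89 CPM per kb. Adam1a (19.2 ± 3.06) and Adam24 (19.0 ± 2.69) were then the lowest, and their libraries overlapped. In CTRL Spc the lowest 3 were Izumo1 (32.3 ± 8.50), Adam1a (31.4 ± 9.06) and Adam24 (26.7 ± 7.46), which overlapped as neighbours. In cKO Spc the lowest were Adam1a at 9.82 ± 4.18 and Adam24 at 8.70 ± 3.59.

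In Spc, Adam1a and Adam24 fell in cKO and Adam2, Adam3 and Adam18 rose, with the rises below the size threshold. Izumo1, Adam1b, Adam5 and Adam32 did not pass the test. A call needed an adjusted p of at most 0.05 and a log2 fold change whose size was 1.5 or more, as the study set it. By that rule 2 of the 9 genes were lower, where 5.1% of all 17321 genes tested were lower, and none was higher, where 3.41% of all genes were. By adjusted p alone, 3 genes were higher and 2 lower, against 14% and 14.1% of all genes.

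Izumo1 stood at 71.7, 43.1 and 48.7 CPM in the CTRL Spc libraries and at 41.1, 63.6 and 36.3 in the cKO libraries. The groups overlapped, and the difference was -0.21 ± 0.26 (log2, SE), with an adjusted p of 0.574 (edgeR), and 0.05 without CTRL Spc replicate 1, with an adjusted p of 0.897. Adam1a stood at 166, 94.5 and 111 CPM in CTRL and at 36.0, 51.5 and 20.3 in cKO. Every cKO library was below every CTRL library, the fold change was -1.79 ± 0.36 and the adjusted p 0.0137. Adam24 stood at 115, 64.5 and 81.9 CPM in CTRL and at 26.0, 37.4 and 15.3 in cKO. Again the groups were apart, with -1.73 ± 0.35 and an adjusted p of 0.0138. For these 3 genes CTRL replicate 1 was the highest CTRL library and cKO replicate 2 the highest cKO library, and the same libraries had the highest late spermatid marker sums of their groups (7496 and 1413).

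These calls depended on single libraries. Without CTRL Spc replicate 1, Adam24 stood at -1.47 with an adjusted p of 0.0253. Without cKO Spc replicate 1, Adam1a and Adam24 had adjusted p values of 0.0607 and 0.0612. Without cKO Spc replicate 3, their fold changes were -1.48 and -1.44, with adjusted p values of 0.0218 and 0.0227.

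Adam18 stood at 216, 218 and 231 CPM in CTRL Spc and at 388, 458 and 375 in cKO Spc. The cKO libraries were all higher, by 0.88 ± 0.09 on the log2 scale, with an adjusted p of 0.00174. Adam3 stood at 1727, 1372 and 1506 CPM in CTRL and at 1969, 1989 and 1954 in cKO. This rise was 0.36 ± 0.09, with an adjusted p of 0.0248. Adam2, the partner of both ADAM1 forms, stood at 783, 777 and 808 CPM in CTRL and at 917, 908 and 867 in cKO. It was 0.19 ± 0.06 higher, with an adjusted p of 0.0464. The rise of Adam18 passed the adjusted p without any 1 of the 6 libraries, but that of Adam2 passed in none of these 6 fits (adjusted p 0.0655 to 0.132). The rise of Adam3 was lost in 4 of them, without CTRL replicate 2 or 3 or cKO replicate 1 or 3 (up to 0.0825). Adam1b ranged from 209.9 to 233 CPM in CTRL and from 181 to 204 in cKO, without overlap, at -0.19 ± 0.08 and an adjusted p of 0.0998. Adam5 (-0.23 ± 0.09, adjusted p 0.0987) overlapped between the groups, and Adam32 (0.19 ± 0.07, adjusted p 0.0925) did not. The 3 genes of the chromosome 8 cluster that were higher in cKO by their means stood beside a neighbour, Adam5, that was lower by its mean.

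In RS, Adam1a and Adam24 fell most, Izumo1 and Adam5 fell less, Adam18 rose, and Adam2 gave no difference that passed the test. By both thresholds 2 of the 9 genes were lower, where 11.6% of all 17492 genes were lower, and none was higher, where 14.8% of all genes were. By adjusted p alone 7 were lower and 1 higher, against 34.3% and 38.4% of all genes. The median log2 fold change of the 9 genes was -0.47, and that of all genes 0.11.

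Adam1a stood at 429, 442 and 452 CPM in CTRL RS and at 53.1, 72.6 and 60.5 in cKO RS. Each cKO library was far below each CTRL library, at -2.83 ± 0.11 and an adjusted p of 5.03e-07, so that the cKO level was 0.141 of the CTRL level. Adam24 stood at 305, 297 and 262 CPM in CTRL and at 45.5, 58.9 and 48.1 in cKO. It fell by 2.50 ± 0.11 on the log2 scale, to 0.176 of the CTRL level, with an adjusted p of 7.83e-07. Izumo1 stood at 199, 187 and 172 CPM in CTRL and at 80.7, 106 and 78.4 in cKO. The groups did not overlap, and the fall of 1.07 ± 0.12 on the log2 scale, with an adjusted p of 0.000104, left 0.475 of the CTRL level. Adam1b, next to Adam1a on the chromosome, stood at 259, 252 and 241 CPM in CTRL and at 166, 190.0 and 186 in cKO. It fell by 0.47 ± 0.07, with an adjusted p of 0.000507, a smaller difference than that of Adam1a, with which it shares read-length sequence.

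Adam5 stood at 2220.0, 2001 and 2176 CPM in CTRL RS and at 1097, 1121 and 1184 in cKO RS. It fell by 0.91 ± 0.06, to 0.532 of the CTRL level, with an adjusted p of 7.44e-06. Adam3 stood at 2302, 2219 and 2448 CPM in CTRL and at 1773, 1925 and 1912 in cKO, with no overlap. The fold change was -0.31 ± 0.06 and the adjusted p 0.00258. Adam32 stood at 1001, 905 and 964 CPM in CTRL and at 703, 813 and 805 in cKO, at -0.31 ± 0.08 and an adjusted p of 0.00638. Adam2 stood at 638, 600.4 and 582 CPM in CTRL and at 586, 605 and 606 in cKO. Its groups overlapped, and the difference was -0.02 ± 0.06 with an adjusted p of 0.786. Adam18 alone rose, from 212, 202 and 181 CPM in CTRL to 281, 323 and 297 in cKO, by 0.60 ± 0.08 with an adjusted p of 3e-04.

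Scaling by library size alone put the median over all genes in RS at 0.73 instead of 0.11. Under it Adam1a (-2.21), Adam24 (-1.89), Izumo1 (-0.46) and Adam5 (-0.29) were still lower, whereas Adam1b (0.14), Adam3 (0.31), Adam32 (0.31) and Adam2 (0.60) were higher by their values. The directions of these last 4 in RS are therefore given relative to the scaling.

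**Figure D2:**
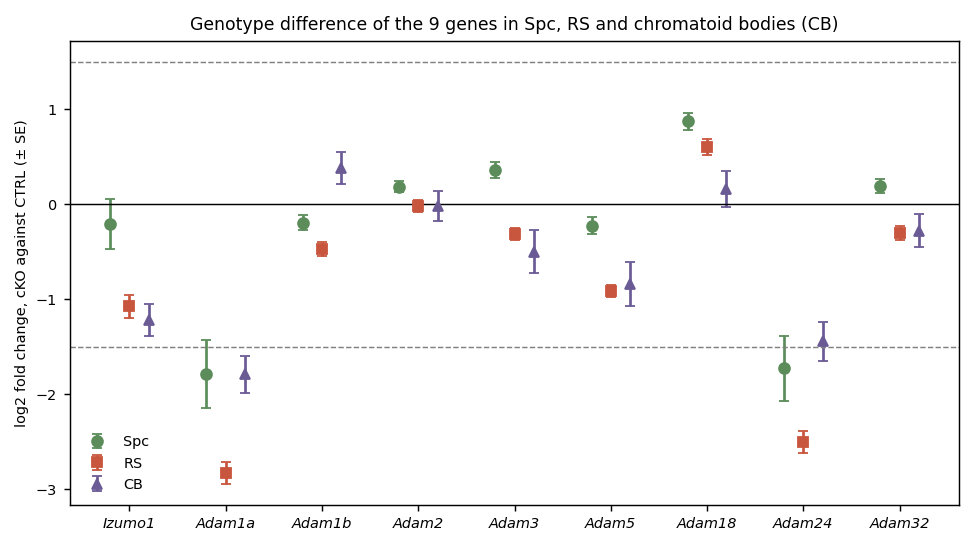
Log2 fold change of cKO against CTRL (± SE) for the 9 genes in Spc (circles), RS (squares) and CB (triangles), with dashed lines at the size threshold of 1.5. Adam1a and Adam24 lie at -2.83 and -2.50 in RS, and Adam18 is above 0 in all 3.

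Chromatoid bodies are RNA-rich granules of round spermatids that hold NMD factors. Here they were isolated with an antibody to DDX4, and rRNA was not removed. Adam1a, Adam24, Izumo1 and Adam5 were lower in cKO CB RNA, and the other 5 did not pass the test. With both thresholds 1 of the 9 genes, Adam1a, was lower, where 5.64% of 14051 genes were lower, and none was higher, where 5.69% of genes were. By adjusted p alone 4 genes were lower, against 18.4% of all genes, and none was higher, against 18.1%. The numbers in the column names of these libraries do not match those of the sample titles, so values are given from low to high.

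Adam1a had 54.1, 61.7, 66.1 and 79.9 CPM in the 4 CTRL CB libraries and 17.3, 18.9 and 20.6 in the 3 cKO libraries. The groups were apart, at -1.79 ± 0.20 and an adjusted p of 5.4e-05. Adam24 had 39.5, 44.9, 51.9 and 55.0 CPM in CTRL and 14.5, 18.4 and 20.4 in cKO. Its fold change of -1.44 ± 0.20, with an adjusted p of 0.000236, was under the size threshold. It passed the threshold without the CTRL library at 39.5 CPM (-1.53) and without the cKO library at 20.4 CPM (-1.62). Izumo1 had 67.5, 68.6, 72.0 and 83.0 CPM in CTRL and 29.1, 30.4 and 34.4 in cKO, at -1.22 ± 0.17 and an adjusted p of 0.000213.

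Adam5 had 179.6, 187, 199 and 325 CPM in CTRL CB and 103, 117 and 153 in cKO, without overlap. The difference was -0.84 ± 0.23, with an adjusted p of 0.0128, or 0.0556 without the cKO library at 103 CPM. Adam1b, by contrast, had 39.9, 44.2, 51.9 and 55.2 CPM in CTRL and 55.7, 65.2 and 65.3 in cKO. Every cKO library was above the CTRL libraries, but the difference of 0.38 ± 0.17 had an adjusted p of 0.0967. Adam2 (-0.02 ± 0.16, adjusted p 0.942), Adam3 (-0.50 ± 0.23, 0.0992), Adam18 (0.16 ± 0.19, 0.523) and Adam32 (-0.28 ± 0.18, 0.229) overlapped between the groups. Late spermatid markers summed to 2384 to 5037 CPM in CTRL CB and 499 to 572 in cKO CB, and round spermatid markers to 577 to 704 and 236 to 293. Leydig cell markers summed to 14.9 to 57.4 and 43.6 to 414, spermatogonia markers to 18.5 to 28.8 and 36.5 to 122, Sertoli cell markers to 25.3 to 32.7 and 31.0 to 83.0, and macrophage markers to 10.8 to 18.5 and 13.8 to 70.9. Their part in these values was not tested.

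**Figure D3:**
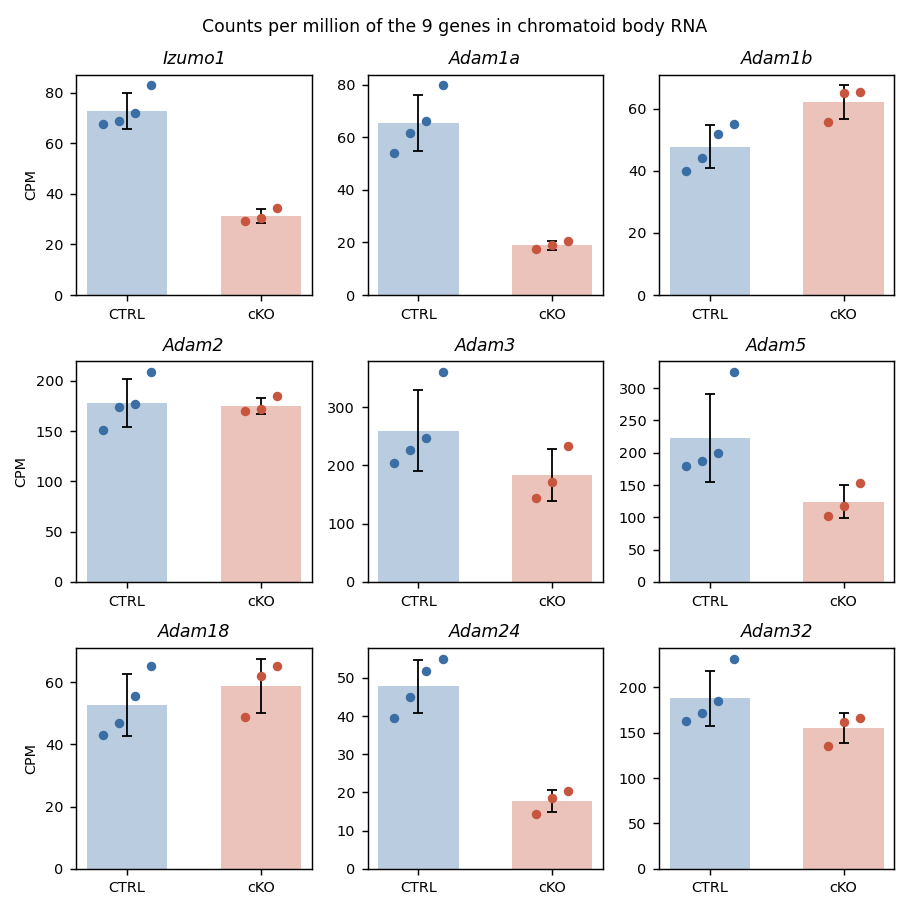
CPM of the 9 genes in the 4 CTRL (blue) and 3 cKO (red) CB libraries, scaled together over the 7, with the group mean (bar) and SD (error bar). Adam1a, Adam24, Izumo1 and Adam5 show the cKO libraries apart from and below CTRL, Adam1b shows them apart and above, and in Adam5 the highest CTRL library, at 325 CPM, stands away from the other CTRL libraries.

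From Spc to RS in CTRL, Izumo1, Adam1a and Adam24 rose, and the other Adam genes changed less. By both thresholds 3 of the 9 were higher, where 17% of 17046 genes were higher, and none was lower, where 17% of genes were. By adjusted p alone 7 were higher and 1 lower, against 36.2% and 39.7% of all genes. Scaled over both stages, Izumo1 went from 48.2 ± 12.7 CPM in CTRL Spc to 203 ± 14.5 in CTRL RS (SD, n = 3), a rise of 1.94 ± 0.19 with an adjusted p of 0.000177. Adam1a went from 109.6 ± 31.7 to 481 ± 12.4 CPM, by 2.00 ± 0.20 with an adjusted p of 0.000188. Adam24 went from 77.1 ± 21.5 to 314 ± 25.3 CPM, by 1.89 ± 0.21 with an adjusted p of 0.000229.

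The increases of the other genes in CTRL were smaller. Adam3 rose by 0.76 ± 0.10 (adjusted p 0.000384), Adam5 by 0.49 ± 0.08 (0.000963), Adam32 by 0.37 ± 0.07 (0.00246) and Adam1b by 0.36 ± 0.07 (0.00348). Under library size scaling, which put the median over all genes at -0.54 instead of -0.08, Adam1b was -0.10 and Adam32 -0.09, and Adam5 was at 0.03. Adam2 fell by 0.22 ± 0.07 on the log2 scale, with an adjusted p of 0.0251, which rose to as much as 0.111 without CTRL RS replicate 2 or 3 or CTRL Spc replicate 3. Adam18 stood at 0.00 ± 0.09, with an adjusted p of 0.993, and at -0.46 under library size scaling. Scaled by library size, Izumo1 (1.49) and Adam24 (1.45) fell under the size threshold and lost their calls, and Adam1a (1.55) kept its call.

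In cKO no member was called between the stages, where 3.27% of 17709 genes were higher and 3.79% lower. DESeq2 called none either, and by unadjusted p 6 of the 9 were under 0.05. By adjusted p alone 3 members were higher, Adam24 (1.11 ± 0.29, adjusted p 0.0163), Izumo1 (1.07 ± 0.22, 0.00642) and Adam1a (0.95 ± 0.30, 0.0343), against 18.9% of all genes. Adam2 and Adam18 were lower, at -0.43 ± 0.06 (adjusted p 0.00094) and -0.29 ± 0.09 (0.0397), against 26.4% of all genes. Adam1a lost the adjusted p without any 1 of the cKO RS libraries or cKO Spc replicate 1 (up to 0.0959), Adam18 without cKO RS replicate 1 or 3 or cKO Spc replicate 1 or 2 (up to 0.285), and Adam24 without cKO Spc replicate 1 (0.0602). Without cKO Spc replicate 2, Adam24 passed both thresholds at 1.52, with an adjusted p of 0.00343. Late spermatid markers summed to 428 to 1413 CPM in cKO Spc and 1963 to 2022 in cKO RS. Macrophage markers summed to 33.7 to 46.0 in cKO Spc and 135 to 213 in cKO RS, and Leydig cell markers to 536 to 1103 and 29.3 to 305. The part of these markers in the values of the 9 genes was not tested. The CTRL and cKO stage comparisons and the Spc and RS genotype comparisons use the same 12 libraries.

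**Figure D4:**
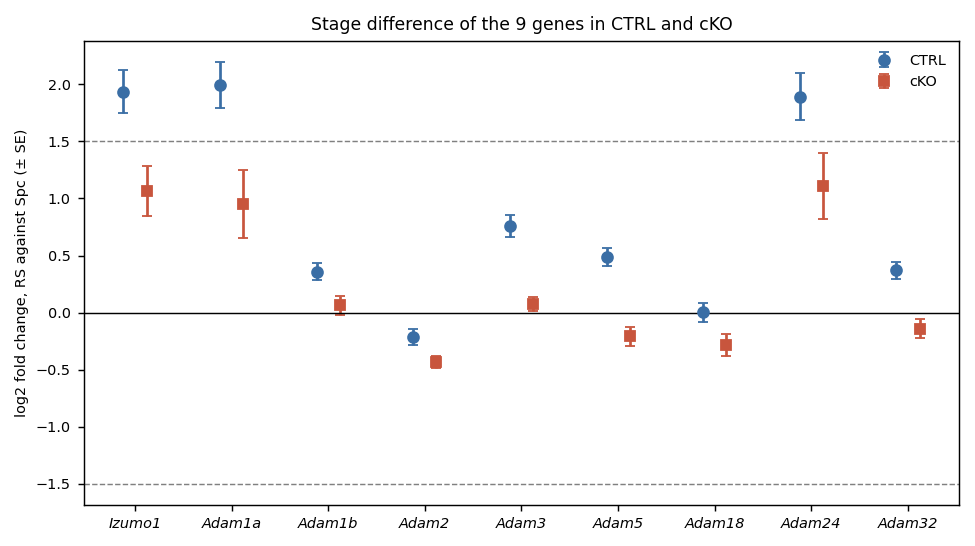
Log2 fold change of RS against Spc (± SE) for the 9 genes in CTRL (blue circles) and cKO (red squares), with dashed lines at the size threshold of 1.5. Izumo1, Adam1a and Adam24 lie at 1.94, 2.00 and 1.89 in CTRL, and at 1.07, 0.95 and 1.11 in cKO.

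The genotype difference in RS was compared with that in Spc in 1 fit over the 12 libraries, with the adjusted p alone as the threshold. For 8 of the 9 genes the difference in RS was lower than that in Spc, where 24.1% of 18171 genes were lower and 19% higher. The difference was -1.17 ± 0.40 for Adam1a (adjusted p 0.0338), -0.98 ± 0.31 for Izumo1 (0.0248), -0.81 ± 0.12 for Adam5 (0.000753) and -0.80 ± 0.11 for Adam3 (0.000458). It was -0.62 ± 0.11 for Adam32 (0.00188), -0.40 ± 0.10 for Adam1b (0.00873), -0.40 ± 0.13 for Adam18 (0.0275) and -0.33 ± 0.08 for Adam2 (0.00891). Adam24 stood at -0.90 ± 0.38, with an adjusted p of 0.0781. The median of all genes in this fit was -0.13. With library size scaling that median moved to 0.58 and only 2 members, Adam1b (0.30) and Adam2 (0.38), passed, both higher, and Adam18 (0.31) and Adam32 (0.09) also turned, so the direction of these 4 interactions rests on the scaling. The count was 5 without CTRL RS replicate 1, without cKO RS replicate 1, without CTRL Spc replicate 2 or without cKO Spc replicate 2, and 4 without cKO RS replicate 3. Of the 12 fits that left out 1 library, Adam1a lost the adjusted p in 9 (up to 0.0816), Izumo1 in 6 (up to 0.0745), Adam18 in 6 (up to 0.119) and Adam2 in 1 (0.0519), while Adam1b, Adam3, Adam5 and Adam32 passed in all 12.

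Of the transcripts of these genes, 31 were tested in every comparison. Reads were shared among transcripts that overlap, so isoforms of 1 gene cannot be told apart. In Spc 2 of the 31 were lower, Adam1a-201 and Adam24-201, where 3.55% of 57631 transcripts were lower. In RS 3 of 31 were lower, where 10.3% of 57133 transcripts were, the third being Adam1a-202 (-2.35 ± 0.09, edgeR adjusted p 1.74e-06), a transcript of 15 exons that reaches upstream beyond the single-exon one. In CB 1 was lower, Adam1a-201 (-1.53 ± 0.19, adjusted p 0.000565), where 4.75% of 30623 transcripts were. The Spc count was 1 without CTRL Spc replicate 1 or cKO Spc replicate 3 and 0 without cKO Spc replicate 1, and the CB count was 0 without the CTRL library at 79.9 CPM of the Adam1a gene or the cKO library at 17.3, whereas the RS count was 3 in each such fit. None was higher in any of the 3, where 1.85%, 10.6% and 2.22% of transcripts were. Adam18-203, annotated as an NMD target, and Adam18-201, the coding transcript, had mean levels of 185 CPM each in cKO Spc and 100 CPM each in CTRL Spc, since they share their exons. The 3 NMD transcripts annotated for Adam3 and the 2 for Adam32 had log2 fold changes of 0.34 to 0.38 and 0.21 to 0.25 in Spc, and of -0.26 to -0.23 and -0.22 in RS. In CB those of Adam3 were at -0.34 to -0.24, and Adam32-207 and Adam32-208 went opposite ways, at 0.32 and -0.62. None of these passed the adjusted p in CB.

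The genes that act beside this set moved as follows, with lists chosen knowing earlier results of these data. Of 10 other sperm fusion genes, 9 were tested. In RS 6 were lower and none higher by both thresholds (11.6% and 14.8% of all genes), with a median of -1.74 against 0.11 for all genes, and in CTRL 7 rose from Spc to RS, where 17% of all genes did. 4930451I11Rik (-2.58) and 1700034O15Rik (-2.39), known as Fimp and Llcfc1, fell most in RS. Izumo4 stood at -0.04 there, with an adjusted p of 0.583. Of 14 genes that ADAM3 needs to mature, such as chaperones and surface partners, 6 were lower and 1 higher in RS, with a median of -0.86. Prss55 (-3.34), Pmis2 (-2.91) and Prss37 (-2.87) fell most, and Tpst2 rose by 1.74. Clgn, the chaperone calmegin, was at -0.19 with an adjusted p of 0.0698. On the egg side, Izumo1r, which encodes the receptor JUNO, had no count in Spc, CTRL RS or CB and at most 0.0844 CPM in cKO RS, and Zp3 stood at 0.0322 to 0.358 CPM in CTRL RS and 0.253 to 0.57 in cKO RS (adjusted p 0.15, edgeR). Cd9, a membrane protein of the egg that other cells also make, was at 1.51 to 2.45 CPM in CTRL RS and 3.12 to 3.73 in cKO RS, higher by 0.79 ± 0.24 with an adjusted p of 0.0169.

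Of 12 other testis Adam genes, 11 were lower in cKO RS, 7 in CB and 3 in Spc, where 11.6%, 5.64% and 5.1% of all genes were lower. None was higher in any of them, where 14.8%, 5.69% and 3.41% of all genes were. In RS they stood at a median of -2.15. Adam21 (-3.17), Adam29 (-2.72) and Adam4 (-2.63) fell most there, and Adam30 (-0.69, adjusted p 0.000894) least. In CTRL 11 of the 12 rose from Spc to RS, against 17% of all genes. Of 14 other Adam genes, outside the set and the testis list, 12 were tested in RS, where 4 were higher and none lower (14.8% and 11.6% of all genes). Adam23 (2.76), Adam19 (2.75) and Adam10 (1.57) had the largest rises. Their means were low in CTRL RS, at 0.584, 0.905 and 4.81 CPM, against 3.92, 6.08 and 14.1 in cKO RS. Macrophage, Leydig cell, Sertoli cell and spermatogonia markers were higher in the same libraries, in a relation that was not tested. The Sertoli cell markers summed to 85.5 to 232 CPM in cKO RS against 57.9 to 73.7 in CTRL RS, and the spermatogonia markers to 71.0 to 116 against 37.4 to 47.3.

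The Adam genes of the set and those of the 2 lists were also set side by side by exon number, a split chosen after their values were seen. The 15 genes with 1 to 4 exons in the main transcript had a median of -2.18 in RS, from -3.17 to -0.47, and 13 were lower by both thresholds, where 11.6% of all genes were. Windows shared between genes were examined only for the genes of the set, and not for pairs such as Adam6a (-2.06) and Adam6b (-2.18). The 19 with 14 to 30 exons, of which 17 were tested, had a median of 0.74, from -0.91 to 2.76, with 4 higher, where 14.8% of all genes were, and none lower. That class holds the 5 genes of the set, at -0.91 to 0.60 with none called. It also holds 12 tested genes of the list of other Adam genes, which had a median of 0.996 and gave all 4 calls. The means of those 4 in CTRL RS were low, at 0.584 to 4.84 CPM. In CTRL, 13 of the first 15 rose from Spc to RS, where 17% of all genes rose and 17% fell. Of 16 tested among the others 1, Adam15 (1.70), rose and 5 fell, all 6 of them from the list of other Adam genes. The CTRL RS libraries enter both comparisons. Of the set, Adam1a, Adam1b and Adam24 belong to the first class, and Adam1b and Adam30 are the 2 of its genes that were not called in RS. Adam2, Adam3, Adam5, Adam18 and Adam32 are in the second.

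**Figure D5:**
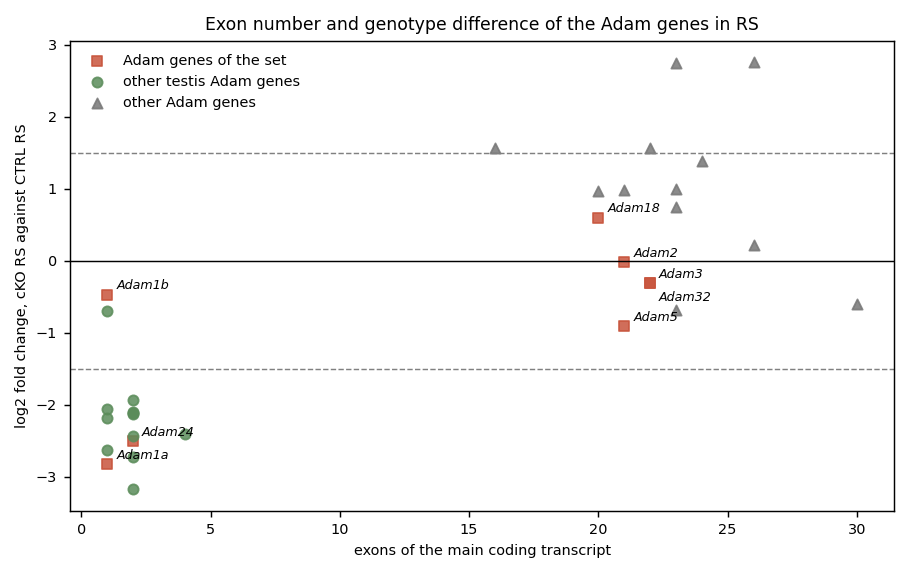
Log2 fold change of cKO RS against CTRL RS for Adam genes by the number of exons of the main coding transcript, with squares for the Adam genes of the set, circles for other testis Adam genes and triangles for the other Adam genes. The genes with 1 to 4 exons lie between -3.17 and -0.47, and those with 14 to 30 exons between -0.91 and 2.76, with the genes of the set there at -0.91 to 0.60. Adam23 and Adam19, the highest, had means of 0.584 and 0.905 CPM in CTRL RS.

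Across the 12 Spc and RS libraries, the genes with a pattern nearest to that of Izumo1, by the root mean square difference of centred log2(CPM + 1), were Tmc7 (0.0921), Efcab12 (0.0936), Ace3 (0.0952), Tex26 (0.101) and Nrm (0.109), out of 9064 genes with at least 10 CPM. Tmc7 had means of 128 CPM in CTRL Spc, 107 in cKO Spc, 474 in CTRL RS and 229 in cKO RS, where Izumo1 had 48.2, 44.9, 203 and 95.4. Among the Adam genes of the set, Adam3 was nearest at 0.677 and Adam18 farthest at 1.11. Adam1a, at 0.849, and Adam24, at 0.744, were not among the nearest, as their cKO values lay further below CTRL than those of Izumo1.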

How the data were processed

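Long RNA libraries of Spc and RS (poly(A), stranded, paired reads) and of CB (total RNA) were used. Reads had been trimmed with cutadapt 2.8 and aligned to GRCm38 with STAR 2.7.1a, as the labels state. The deposited gene tables of TEtranscripts hold whole-number counts, and the deposited transcript tables of featureCounts 2.0.1 hold expected counts in which overlapping transcripts share a read, which were rounded to whole numbers. How TEtranscripts treated reads of several genes is not given in the sources used here.

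Genes with 10 counts and transcripts with 20 counts in at least 3 libraries were tested with edgeR 4.0.16 in R 4.3.3 (TMM scaling and two-sided quasi-likelihood tests, with p values adjusted by Benjamini-Hochberg over all features). Levels are TMM-scaled CPM. Within 1 genotype comparison they are scaled within Spc, RS or CB, and across stages over the 12 Spc and RS libraries. Alternatives were DESeq2 1.42.0, library size scaling, no count filter, a replicate block, transcript counts summed per gene, 1 fit over the 12 libraries, and leaving out each library. The gene fits of Spc, RS and CB, but not those of stages, interaction or transcripts, were tested on simulated data with 1 draw each, in which the share of false calls by adjusted p alone was above the threshold of 0.05. Same-numbered libraries need not share an animal, and p values measure the spread between libraries. The main transcript is the one with the longest coding sequence, which sets the length in kilobases. All 9 genes are named, with at most 3 lowest and 3 highest called genes of each other list and the 5 genes nearest to Izumo1. The members and lists were chosen with earlier results of these data known. Small RNA and piRNA tables were not used here.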

Additional observations from a re-analysis of the deposited data

Results flagged for a closer look

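In CTRL CB RNA, 1 library stood away from the other 3 for Adam5, with 325 CPM against 179.6 to 199 CPM (a gap of 0.864 of the whole range, over Dixon's limit for 4 samples). Chance gives such a gap in about 1 of 20 groups, and 9 genes were looked at. Without it the CTRL libraries still lay above the 3 cKO libraries, at 103 to 153 CPM.

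The genotype difference in RS was lower than that in Spc, tested as an interaction with edgeR, for Adam1a (-1.17), Izumo1 (-0.98), Adam5 (-0.81), Adam3 (-0.80), Adam32 (-0.62), Adam1b (-0.40), Adam18 (-0.40) and Adam2 (-0.33), on the log2 scale. Adam3 and Adam32 were at 0.36 and 0.19 in Spc and at -0.31 each in RS, but at 0.31 each in RS under library size scaling. Adam18 was higher in cKO at both stages. In the interaction under that scaling Adam1b, Adam2, Adam18 and Adam32 turned, so the direction of these 4 rests on the scaling. Only Adam1b and Adam2 passed the adjusted p there, both higher, so Adam1a, Izumo1, Adam5 and Adam3 did not pass under it either. Of the 12 fits that left out 1 library, Adam1a lost the adjusted p in 9, Izumo1 and Adam18 in 6 each and Adam2 in 1.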

How the results depend on the processing

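The 2 genes lower in Spc, the 2 in RS, the 3 higher in CTRL RS against Spc, the 0 called between stages in cKO and the 8 interactions were the same counts with the replicate block, and so were the 2 and 3 transcripts of Spc and RS; same-numbered libraries did not all deviate together (correlations from -0.383 to 0.617, with 2 of 6 libraries nearest to their own number in Spc, 1 in RS, 0 in the CTRL stages and 4 in the cKO stages), so the block carries no known pairing. With it the adjusted p of Adam2 was 0.0734 in Spc and 0.0654 in CTRL RS against Spc. No blocked fit was run for CB, where the numbers of the columns do not match those of the sample titles. With library size scaling, 2 members were called in CB, 1 in CTRL RS against Spc and 2 had an interaction, and 2 transcripts were called in CB. Without a count filter, 2 members and 2 transcripts were called in CB. With 1 library left out the count was 0 to 2 in Spc, 1 to 2 in CB, 0 to 1 in cKO RS against Spc, 4 to 9 for the interaction, 0 to 2 for transcripts in Spc and 0 to 1 for those in CB. Values past the adjusted p that turned under library size were Adam1b (0.14), Adam3 (0.31) and Adam32 (0.31) in RS, Adam1b (-0.10) and Adam32 (-0.088) in CTRL RS against Spc, and Adam1b (0.30), Adam2 (0.38), Adam18 (0.31) and Adam32 (0.0891) in the interaction. Of the values not past it, Adam2 in RS (0.60), Adam18 in CTRL RS against Spc (-0.46) and Adam32 in cKO RS against Spc (0.0012) also turned. That scaling put the median over all genes in RS at 0.73 instead of 0.11. Of 684 single values over the alternatives, 632 kept their side of the thresholds without a turn of a value past the adjusted p; values near 0 that had not passed it, such as Adam2 in RS and CB and Adam18 in CTRL RS against Spc, changed sign in several alternatives. CB libraries were the shallowest, at 2705277 to 12103906 gene counts.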
